A study of Caenorhabditis elegans with 12 samples.

Results

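Early embryos that lack MET-2 were described by 1941 genes, out of 2949 with values in the series, whose transcripts the authors' table for this mutant holds at a mean of at least 2-fold above or below the wild type. The genes were those of the met-2 table with a mean log2 ratio to N2 of at least 1 or at most −1 over the 3 met-2 libraries. Every gene of that table met this limit. Of the 1941 genes 1922 stood higher than N2 and 19 stood lower. The values that chose the genes are given as a description, without a test against N2.

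The nematode Caenorhabditis elegans strain met-2(n4256) III carries a deletion allele of met-2 on chromosome III, and its baseline was the N2 (Bristol) wild type. The strain lin-65(delta) I lacks lin-65, and the strain with both mutations, lin-65(delta) I and met-2(n4256) III, is called the double mutant here. Worms of the 4 strains were kept at 20 °C, and the embryos, collected 60 to 65 h after larval synchronization according to the strain, held about 1 to 300 cells, which is before the bean stage. Total RNA without ribosomal RNA was sequenced from 3 biological replicates of each strain, described as independent, and values were available for the 9 mutant libraries. Each library came from a pool of embryos of mixed stages. In such bulk samples, more cells of a type and more RNA per cell cannot be told apart, and the growth time of each strain was not given.

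MET-2 is a histone methyltransferase related to SETDB1 of mammals. It places mono- and dimethylation on lysine 9 of histone H3, a mark of silent chromatin that helps to hold genes and repeats at the nuclear periphery. LIN-65 is a cofactor that MET-2 needs for its place in the nucleus. In an early embryo most cells have not yet differentiated, so the structural genes of muscle, gut, skin and nerve cells are normally transcribed little or not at all.

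The mutated gene was checked first. The met-2 transcript stood at −2.32, −2.39 and −2.35 in replicates 1, 2 and 3 of met-2, which is 0.195 of the N2 level on a linear scale. Its values were low in every met-2 library, and its mean in lin-65 was −0.02 ± 0.08 (SD, n = 3). The lin-65 transcript stood at −0.26, −0.21 and −0.18 in the same met-2 libraries, close to N2. All values are log2 ratios to N2 unless another scale is named, and every SD covers 3 mutant libraries.

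The authors named this table for raised genes, so the small number of lower genes may reflect how it was made. Most of the higher genes stood above N2 by a factor of 2 to 4. The 1922 higher genes had a median mean of 1.45, which is 2.72-fold, with quartiles of 1.21 and 1.77. Means between 1 and 1.5 were held by 1031 genes, between 1.5 and 2 by 605, between 2 and 3 by 282, and above that by 4. The higher genes included 1853 protein-coding genes, which are 9.27% of the 19985 in the annotation. They made up 65.2% of the genes with values, a share that the authors' selection sets and beside which the counts per list are to be read, and the 19 lower genes made up 0.644% of them and 0.0951% of the annotated protein-coding genes. Each of the 3 libraries stood at 1 or more for 1332 of the higher genes, and no higher gene stood at or below 0 in any met-2 library. The SD of a higher gene over the 3 libraries had a median of 0.326. At least 1 of 58 lists of tissues and functions held 700 of the higher genes, and 737 carried a sequence name without a gene symbol from genetics. The lists were chosen with earlier results of these data known, so the shares per list are a description. Of all 1941 genes 18 were pseudogenes and 51 were not in the annotation.

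The limit of 2-fold cut through a dense range of values. Just inside it stood the cuticle shape gene dpy-14, the lipocalin-related lpr-3, the epidermal growth factor receptor gene let-23 and Y49E10.18, all with a mean of 1.00 after rounding. Just outside stood the galectin lec-1, the collagen col-72, the oxygenase gene daf-36 and pud-1.2, which also round to 1.00. Another 92 genes with a met-2 mean of 1 or more were absent from the met-2 table and had values in that of another strain. The highest of these was cex-1, a calcium-binding protein of the calexcitin kind, at 2.44, 1.48 and 1.93 in replicates 1, 2 and 3.

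The 3 genes with the highest means did not belong to a muscle, gut or skin list. The first was srw-85, a chemoreceptor gene on chromosome V, which stood at 4.71, 4.53 and 4.39. Its 3 libraries lay close together, against a lin-65 mean of 0.27 and a double mutant mean of 0.74. C55C3.3 on chromosome IV stood at 3.99, 4.09 and 4.24, and it was high in the other mutants too, with a lin-65 mean of 3.91 and a double mutant mean of 2.89. ZK1053.2 on chromosome I stood at 3.17, 3.26 and 3.32, against a lin-65 mean of 1.46 and a double mutant mean of 1.2. Replicate 1 was the highest library for srw-85 and the lowest for C55C3.3 and ZK1053.2.

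The rest of the 10 highest genes were sequence-named or without a symbol. Those without a symbol were the pseudogenes WBGene00021662 on chromosome I, at 3.22, 3.01 and 3.07, and WBGene00022215 on the X chromosome, at 3.23, 2.94 and 2.70. C42D4.3 on chromosome IV stood at 3.34, 2.72 and 2.63 in met-2, while its lin-65 mean was −0.83 and its double mutant mean was 2.45. Y58A7A.3 on chromosome V stood at 4.09, 2.57 and 2.14, so that its rank depended on replicate 1. C02E7.7, also on chromosome V, stood at 3.28, 2.5 and 2.61. R02E4.3 on the X chromosome stood at 3.48, 2.54 and 2.31, and F13B12.4 on chromosome IV at 3.28, 2.61 and 2.40. The names of the genes other than these pseudogenes are clone names, and no role is given here for any of them.

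**Figure D1:**
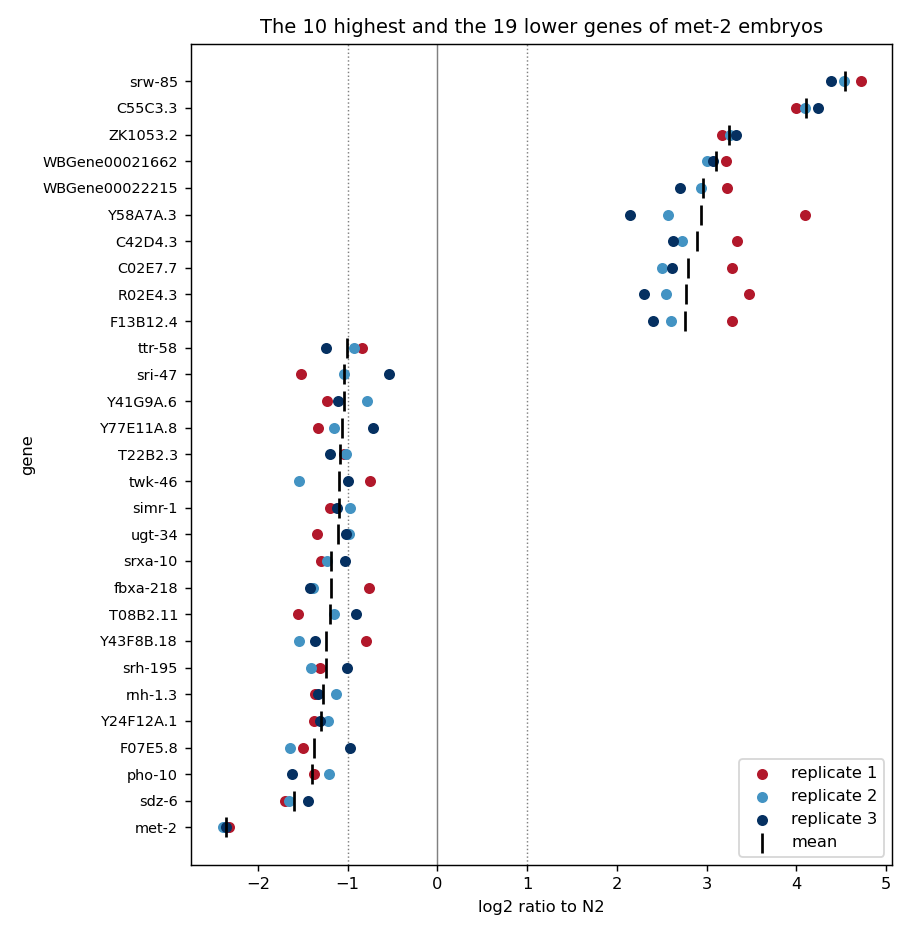
The log2 ratio to N2 (x axis) of each met-2 library is plotted for the genes with the highest means and for all genes with a mean of −1 or less (y axis), with 1 point per library. Among the highest genes srw-85 and C55C3.3 lie near 4 in every library, whereas Y58A7A.3 spreads from 2.14 to 4.09, and met-2 is the lowest gene at about −2.36.

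Among these lists, chosen with earlier results of the data known, body wall muscle genes formed one of the most completely listed groups. The sarcomere, the contractile unit of muscle, is built from thick myosin filaments and thin actin filaments. Of 13 annotated thick filament genes 12 had values and all 12 of these stood higher, with a median mean of 1.74, beside 1.45 over all higher genes. The core protein of the thick filament, paramyosin or unc-15, stood at 2.61, 2.01 and 2.05. The major myosin heavy chain gene unc-54 stood at 2.49, 1.76 and 2.01, and the titin-like ttn-1 at 2.5, 1.75 and 1.97. In each of these genes all 3 libraries stood well above 1, with replicate 1 the highest.

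Of 19 thin filament genes 12 had values, and these 12 stood higher with a median of 1.71. Tropomyosin, lev-11, lies along the actin filament and stood at 2.38, 1.88 and 1.91. Troponin C of the pharynx, tnc-2, which binds calcium, stood at 2.76, 2.36 and 2.40. Muscle attachment structures, the dense bodies and M-lines that tie filaments to the membrane, had 10 higher genes of 13 with values. Among them perlecan, unc-52, stood at 2.35, 1.63 and 1.82, and the vinculin gene deb-1 at 2.09, 1.54 and 1.57. Muscle excitation and calcium handling had 16 higher genes of 18 with values, and their median of 1.33 lay below that of the filament genes. The L-type calcium channel gene egl-19 stood at 2.44, 1.87 and 2.02, the sodium-calcium exchanger ncx-2 at 2.48, 1.95 and 2.02, and the calcium store protein calsequestrin, csq-1, at 2.28, 1.54 and 1.53. The list of body wall muscle genes, which shares members with the filament lists, held 18 higher genes of 22 annotated, and all 18 had values.

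Pharyngeal genes were listed at levels much like those of body wall muscle. The pharynx is the feeding organ, with its own myosins and a lining of cuticle. Of 14 pharyngeal genes with values 11 stood higher, with a median of 1.85, beside 1.74 for body wall muscle. Its myosin heavy chains myo-1 and myo-2 stood at 2.79, 1.76 and 2.20 and at 2.78, 1.77 and 2.06. The proteins rich in glutamine and asparagine of the abu and pqn families, some of which line the pharynx, had 20 higher genes of 22 with values and 70 annotated, with a median of 1.79. The highest were abu-14 at 2.93, 2.23 and 2.29 and abu-13 at 2.77, 2.04 and 2.19.

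Intestinal genes were listed for digestion, transport and defence. Of 20 gut genes with values 18 stood higher, with a median of 1.62. The peptide transporter pept-1 takes up dipeptides from food and stood at 2.85, 2.27 and 2.07. Aspartyl and cysteine proteases of the gut lumen and lysosome had 7 higher genes of 10 with values and a median of 2.01. The aspartyl proteases asp-1 and asp-5 stood at 2.85, 2.02 and 2.25 and at 2.65, 1.77 and 1.89. Lysozymes, saposins and other immune effectors had 16 higher genes of 22 with values, out of 125 annotated. The highest were fipr-21, a small peptide of a family named for fungal induction, at 2.92, 1.82 and 2.34, and the antimicrobial peptide cnc-4 at 2.79, 2.13 and 2.08. These peptide families are also made in the epidermis. Lipid carriers were represented by the fatty acid and retinol binding protein far-1 at 2.86, 2.19 and 2.11.

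The epidermis and the cuticle it secretes contributed many listed genes. Collagens, the main proteins of the worm's cuticle, had 53 higher genes, 67 with values and 175 annotated. Their median was 1.90, and 24 of the 53 passed 4-fold. The gene col-45 on chromosome I stood at 2.87, 2.52 and 2.61, col-144 on chromosome V at 3.0, 2.09 and 2.42, and col-3 on chromosome IV at 2.92, 2.17 and 2.39. Of the annotated collagens 30.3% stood higher. Some collagen genes resemble each other closely, and reads may have been divided between copies.

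Other parts of the cuticle were listed as well. Cuticlins and other zona pellucida domain proteins, which form ridges and the lining of openings, had 15 higher genes of 19 with values and a median of 1.64. They were led by cut-2 at 3.27, 2.35 and 2.58 and by cut-6 at 3.07, 2.39 and 2.44. Molting and cuticle processing genes had 9 higher of 12 with values, with mlt-9 at 2.88, 1.95 and 1.99. Hedgehog-related proteins, secreted proteins of skin and gut in a worm that lacks a classical hedgehog, had 24 higher genes of 26 with values and a median of 1.91. The warthog gene wrt-1 stood at 2.96, 2.27 and 2.32, and the ground-like genes grl-7 and grl-4 at 3.10, 2.15 and 2.29 and at 2.99, 2.13 and 2.32. The patched-related proteins, which resemble hedgehog receptors, had 16 higher genes of 18 with values but a lower median of 1.25. Their highest member, ptr-16, stood at 2.79, 1.78 and 1.81.

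The epidermis list had 12 higher genes of 13 with values, and it shares members with other lists, such as dpy-7 with the collagens and let-805 with the attachment proteins. The transcription factor grainyhead, grh-1, which directs epidermal genes, stood at 2.61, 2.12 and 2.11. Intermediate filaments and the proteins that anchor muscle through the skin had 16 higher of 16 with values and 18 annotated. They included ifa-1 at 2.74, 1.92 and 2.07 and the transmembrane attachment protein let-805, myotactin, at 2.04, 1.36 and 1.69. Basement membrane and matrix genes had 13 higher of 14 with values, with hemicentin, him-4, at 2.66, 1.93 and 2.13.

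Genes of nerve cells were listed in many families, with lower medians than the filament genes of muscle. Of 18 genes of the synaptic vesicle cycle with values 11 stood higher, with a median of 1.62. The vesicle priming factor unc-13 stood at 2.86, 2.0 and 2.21. The calcium sensor of release, synaptotagmin or snt-1, stood at 2.44 in replicate 1 and at 1.2 and 1.21 in replicates 2 and 3. Genes that make or transport transmitters had 10 higher of 15 with values. The vesicular acetylcholine transporter unc-17 stood at 2.34, 1.65 and 0.97, and unc-25, which makes GABA, at 2.17, 1.34 and 1.03. For both genes replicate 3 stood near the limit.

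Neuropeptides and their processing enzymes had 21 higher genes of 35 with values and 154 annotated, among them the insulin-like ins-1 at 2.61, 1.98 and 2.09. Receptors for peptides and amines had 18 of 23, with the serotonin receptor ser-4 at 1.93, 1.52 and 1.96. Ligand-gated channels of the acetylcholine, GABA and glutamate classes had 29 of 43 with values, and potassium, sodium and calcium channels had 40 of 57. The glutamate receptor subunit glr-1 stood at 2.10, 1.73 and 1.84. The potassium channel twk-11 stood at 2.98, 2.16 and 2.22, and acd-2, of the degenerin sodium channel family, at 2.95, 2.36 and 2.79. Gap junction innexins and related proteins had 13 of 19, led by unc-9 at 2.79, 1.89 and 1.97.

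Sensory neurons carry the only cilia of the worm, and ciliary genes were listed for 41 of 51 with values and 90 annotated, with a median of 1.44. The transition zone protein mksr-2 stood at 2.83, 2.85 and 2.24, and the tubby homologue tub-1 at 2.34, 1.91 and 1.88. Axon guidance and adhesion genes had 26 of 34 with values, with the guidance cue madd-4 at 2.53, 2.03 and 1.83. From replicates 2 and 3 alone 17 of these 26 kept a mean of at least 1, and for the conjugating UGT and GST enzymes 6 of 12 did.

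**Figure D2:**
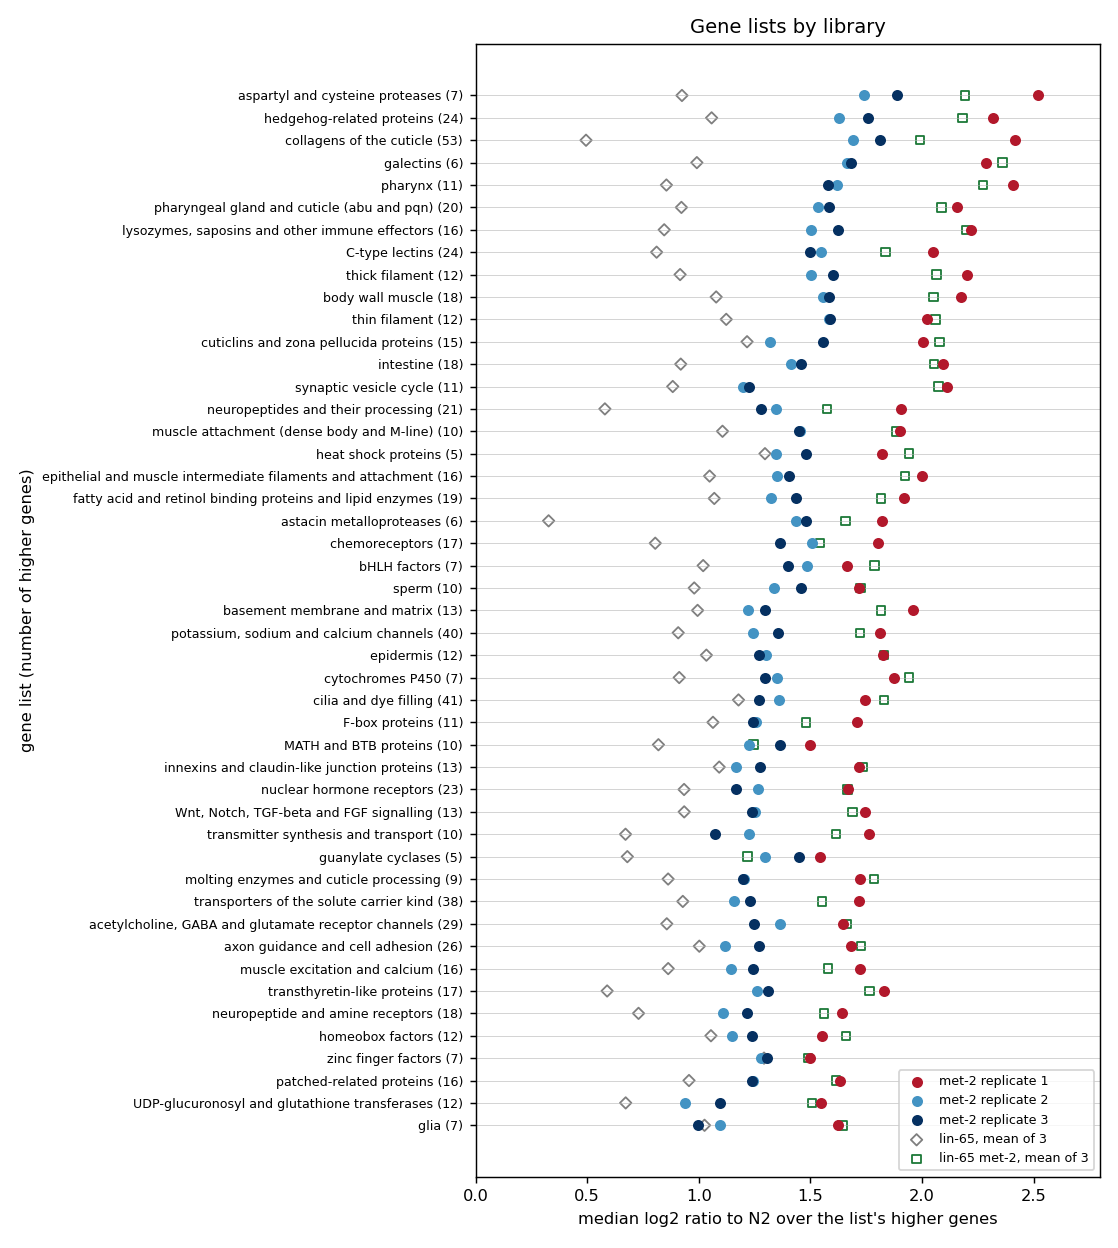
For each gene list with at least 5 genes listed higher in met-2 (y axis), the median log2 ratio to N2 of those genes is plotted (x axis) for replicates 1, 2 and 3 of met-2 and for the lin-65 and double mutant means. Replicate 1 lies to the right of replicates 2 and 3 in the plotted lists, and collagens have a met-2 median of 1.90 against 0.49 in lin-65.

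Few defining markers had values, so the tissue labels could not be checked with them. The markers covered these tissues and also the germ line, oocytes, sperm and the first zygotic genes. Of 24 such markers 7 had values and 5 stood higher, beside 65.2% of all genes with values. Those 5 were the myosins myo-2, unc-54 and myo-3, the synaptic protein rab-3 and the cuticle collagen dpy-7. The others with values were the oocyte genes cbd-1 and rme-2, and no gut marker had a value. The myosin gene myo-3 stood at 2.16, 1.48 and 1.59, and rab-3 at 1.73, 1.03 and 0.93. The early tissue regulators hlh-1, pha-4, elt-2, lin-26 and elt-1 had no value, nor did the early zygotic genes pes-10, end-1, end-3 and med-1. Among all 29 first zygotic genes of the list none had a value. Whether the age of the embryos differed between strains was not tested.

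Transcription factors were listed at shares of their annotated genes near the 9.27% of all protein-coding genes, from 7.41% for the T-box, GATA, forkhead and Sox list to 14% for the bHLH list. Nuclear hormone receptors had 23 higher genes of 48 with values and 274 annotated, led by nhr-247 at 2.02, 1.78 and 2.05. This gene was low in the other mutants, with a lin-65 mean of 0.11 and a double mutant mean of 0.59. Homeobox factors had 12 of 21 with values, 11.4% of those annotated, with zfh-2 at 2.40, 1.89 and 1.98 and the POU factor ceh-18 at 2.34, 1.77 and 2.04. Factors of the bHLH list had 7 of 9, and those of the T-box, GATA, forkhead and Sox list 4 of 7. Zinc finger factors had 7 higher of 11 with values and 89 annotated. The hunchback homologue hbl-1, which times larval development, stood at 2.31, 1.85 and 1.84, and blmp-1, a repressor active in the epidermis, at 1.96, 1.47 and 1.47. Signalling genes of the Wnt, Notch, TGF-beta and FGF pathways had 13 higher of 14 with values and a median of 1.37.

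The listed share of other families varied widely beside the 9.27% of all protein-coding genes. Chemoreceptors, the seven-pass receptors of sensory neurons, had 17 higher and 3 lower of 1364 annotated, although only 38 had a value. This list was taken by symbol and includes a few genes, such as srp-1 and the srlf genes, that may not be receptors. F-box proteins, adaptors of ubiquitin ligases, had 11 higher and 1 lower of 29 with values and 327 annotated. MATH and BTB proteins had 10 higher of 22 with values and 91 annotated. Their highest member, bath-3, stood at 1.98, 2.0 and 2.11. C-type lectins, sugar-binding proteins linked to defence, had 24 higher of 30 with values and 240 annotated, with clec-209 at 2.5, 2.39 and 2.31. Galectins had 6 of 8 with values and 12 annotated, with lec-9 at 2.75, 2.16 and 2.0.

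Genes of oocytes, meiosis and germ granules were nearly absent from the higher genes, and sperm genes were listed at a share below that of all protein-coding genes. None of 12 oocyte and eggshell genes with values and none of 4 meiosis genes stood at 1 or more in met-2, and the 16 means ran from −0.03 to 0.93. The eggshell gene cbd-1 stood at 0.45, 0.77 and 0.55, and the yolk receptor rme-2 at 0.10, 0.45 and 0.14. Replicate 1 was the lowest library for 11 of the 16. These genes had values only through the table of another mutant. The tissue genes were kept for a high met-2 mean that includes replicate 1, so the 2 groups are not alike in this respect. Of 38 germ granule and germ cell genes 3 had values and 1 stood higher, the Argonaute wago-4, at 1.40, 1.43 and 1.43. The piRNA factor prde-1 stood at 1.71, 1.77 and 1.74, and the cyclin A gene cya-2 at 2.0, 2.23 and 2.03. These 3 genes were as high in replicates 2 and 3 as in replicate 1. Sperm genes had 10 higher of 14 with values and 167 annotated. This is 5.99% of those annotated, beside 9.27% of all protein-coding genes. Replicate 1 was the highest library for 9 of the 10. Among them nspg-13 stood at 2.41, 1.54 and 1.78, spe-15, an unconventional myosin, at 1.95, 1.77 and 1.86, and the kinase spe-6, the exception, at 1.46, 1.63 and 1.61. Ribosomal proteins and proteasome subunits had no value in any table, so their levels in met-2 are not known. Of 83 histone genes 2 stood higher, the linker histone hil-7 and the centromeric histone cpar-1, each with a mean of 1.25.

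The lower genes were few and belonged to no single group. The lowest after met-2 itself was sdz-6, named as a zygotic target of the factor SKN-1, at −1.70, −1.66 and −1.45. The acid phosphatase pho-10 stood at −1.38, −1.21 and −1.62, and the ribonuclease H gene rnh-1.3 at −1.37, −1.13 and −1.33. All libraries of these genes stood below −1. The other mutants stood lower still for rnh-1.3, with a lin-65 mean of −2.04 and a double mutant mean of −2.73. The small RNA factor simr-1, which acts with the mutator complex, stood at −1.19, −0.97 and −1.12. Y24F12A.1 stood at −1.37, −1.22 and −1.30, whereas its lin-65 mean was 0.11. The other lower genes included the chemoreceptors srh-195, srxa-10 and sri-47, the F-box gene fbxa-218, the potassium channel twk-46, the transferase ugt-34 and the transthyretin-like ttr-58, with means from −1.24 to −1.0. F07E5.8, Y43F8B.18, T08B2.11, T22B2.3, Y77E11A.8 and Y41G9A.6 carry sequence names and had means from −1.37 to −1.04. In 8 of the 19 all 3 libraries stood at −1 or less, and no lower gene stood at or above 0 in any met-2 library.

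Replicate 1 stood above replicates 2 and 3 for nearly every higher gene. The medians over the 1922 higher genes were 1.81, 1.30 and 1.31 in replicates 1, 2 and 3, or 3.50-fold, 2.46-fold and 2.49-fold. Replicate 1 was the highest library for 1749 of them, 91.0%, against 83.5% of all 2949 genes with values. Replicates 2 and 3 were close to each other, with a median absolute gap of 0.164 per gene. Because 1 library was set against 2, no test was made of this difference.

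The excess of a gene is here replicate 1 minus the mean of replicates 2 and 3, in log2 units. Its median was 0.52 over all 1941 genes, which is 1.43-fold, with quartiles of 0.34 and 0.68, and it was 0.47 over all genes with values. Among the 19 lower genes the median was −0.14, and replicate 1 was the lowest library for 10 of them. The major-axis slope of replicate 1 on the mean of the others was 1.27 across the higher genes and also across all genes with values. That of replicate 2 on replicate 3 over all genes with values was 0.989. A mean of libraries varies less than a single library, which can raise the first slope, so these slopes are not strictly alike. Moving every library to the same median brought the excess to 0.066, and dividing each by its slope brought it to 0.20. The cause of the difference was not tested, and no library depth or batch was given in the sources used here.

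The choice of genes depended on this library to a measured extent. Of the higher genes 145 stood at 1 or more in replicate 1 alone, while 22 stood below 1 in replicate 1, 363 in replicate 2 and 358 in replicate 3. Without replicate 1 the mean stayed at 1 or more for 1597 of the 1922. Genes chosen by replicates 2 and 3 alone out of all genes with values numbered 1651, and 97.8% of these stood at 1 or more in replicate 1, with a median of 1.89 there. In the reverse direction, genes chosen by replicates 1 and 3 numbered 2169, of which 72.7% stood at 1 or more in replicate 2. The genes were selected by the authors with replicate 1 included.

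**Figure D3:**
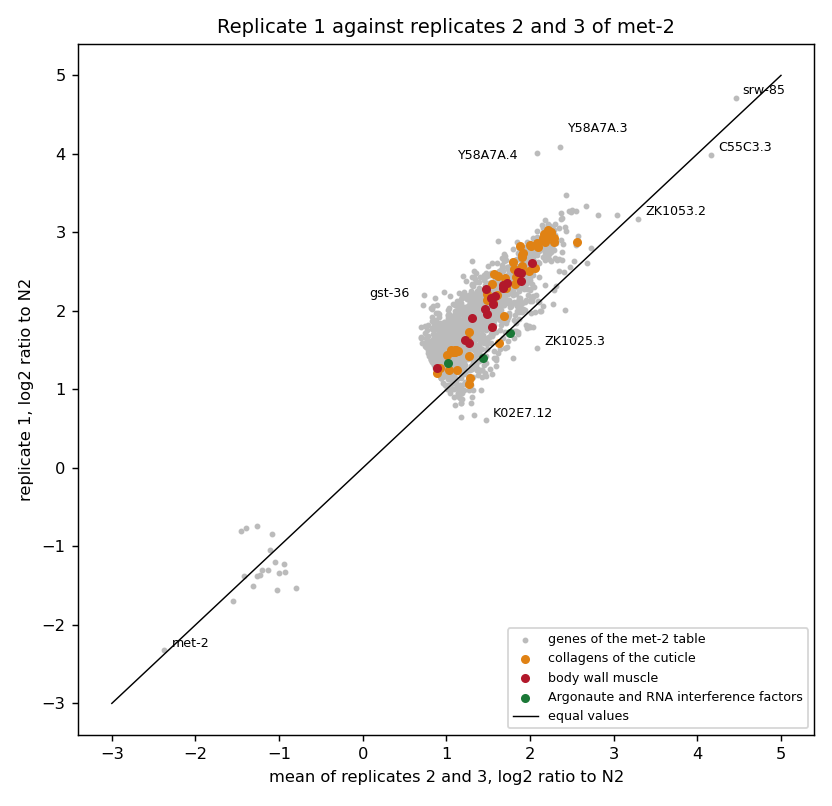
Replicate 1 of met-2 (y axis, log2 ratio to N2) is plotted against the mean of replicates 2 and 3 (x axis) for the 1941 genes, with 1 point per gene and the line of equal values. Most genes lie above the line, and Y58A7A.3 and Y58A7A.4 lie farthest above it. Of the Argonaute and RNA interference list, wago-4 and prde-1 lie close to the line. Another higher gene of that list lies above it, with an excess of 0.32.

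The excess differed between gene groups. It was largest by median in pharyngeal genes at 0.80, transthyretin-like proteins at 0.78, immune effectors at 0.76 and the aspartyl and cysteine proteases at 0.74. It was smaller in homeobox factors at 0.34, MATH and BTB proteins at 0.37, cilia at 0.46 and thin filament genes at 0.50. Single genes reached far larger gaps. Y58A7A.4, next to Y58A7A.3 on chromosome V, stood at 4.01 in replicate 1 and at 2.09 and 2.07 in the others. The glutathione transferase gst-36 stood at 2.08, 0.62 and 0.82, the peptide transporter pept-2 at 2.17, 0.89 and 0.85, and the groundhog gene grd-2 at 2.24, 0.78 and 1.17. These 3 genes would fall under the limit without replicate 1.

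A smaller set ran the other way. Replicate 1 was the lowest library for 70 of the higher genes, and 78 had an excess under 0.1 in absolute size. The gene K02E7.12 stood at 0.61 in replicate 1 and at 1.70 and 1.24 in the others. The fatty acid elongase elo-8 stood at 0.67, 1.55 and 1.10, the SET domain gene set-28 at 0.82, 1.48 and 1.10, and the guanylate cyclase gcy-37 at 0.99, 1.30 and 1.52. ZK1025.3 stood at 1.52, 2.21 and 1.96, below its double mutant mean of 3.49.

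Genes that stood high in the double mutant had a larger excess. Among the 1941 genes the median excess was 0.20 for the 115 with a double mutant mean between 0 and 1, and 0.40 for the 477 between 1 and 1.5. It was 0.52 for 701 genes between 1.5 and 2, 0.62 for 415 between 2 and 2.5, and 0.69 for 212 above that. In the last class the medians of replicates 1, 2 and 3 were 2.69, 1.96 and 2.06. Over all genes with values binned by their lin-65 mean there was no such steady rise. Binned by the mean of met-2 replicates 2 and 3, which is part of the excess, the median also rose. It went from 0.26 in the class of 0 to 0.5 to 0.64 in that of 2 to 2.5, with 0.27 for the 14 genes above. These gradients are descriptions across genes, which are not independent replicates, and the tables share N2 as their baseline.

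**Figure D4:**
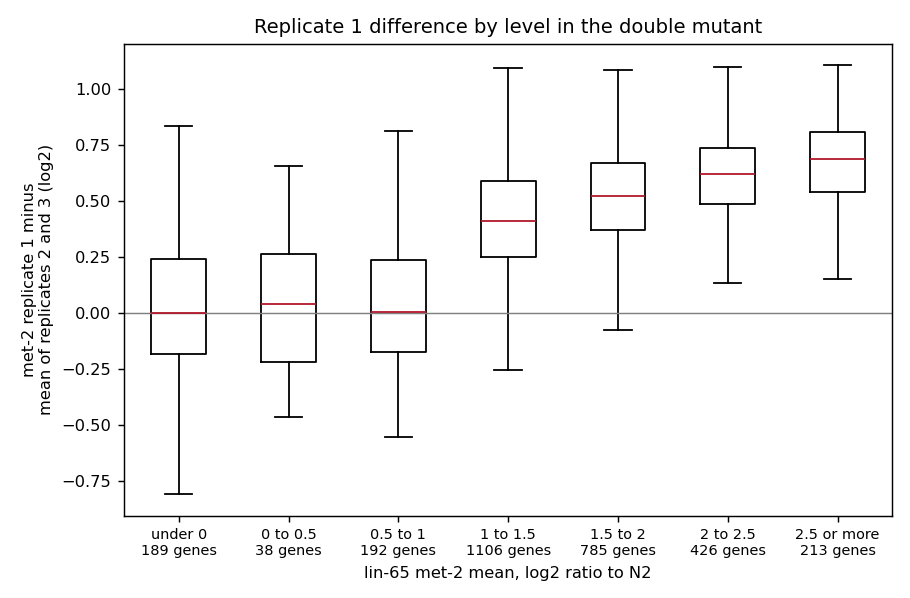
Box plots of replicate 1 minus the mean of replicates 2 and 3 of met-2 (y axis, log2 units) are shown by class of the double mutant mean (x axis, log2 ratio to N2) over all 2949 genes with values, with the median, the quartiles and whiskers of up to 1.5 times the interquartile range, points beyond them not drawn. The median lies near 0 in the classes under 1 and rises from 0.41 in the class of 1 to 1.5 to 0.69 in the top class.

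The higher genes were spread over all chromosomes with more on the X. Of the protein-coding genes of the X chromosome 407 of 2731, 14.9%, stood higher. On the autosomes the share ran from 7.58% on chromosome III to 9.45% on chromosome IV. With replicates 2 and 3 alone the X share was 12%, and the autosomes ran from 6.44% to 7.89%. The median mean on the X, 1.45, lay within the range of the autosomes, so the larger share on the X did not come with a higher median.

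**Figure D5:**
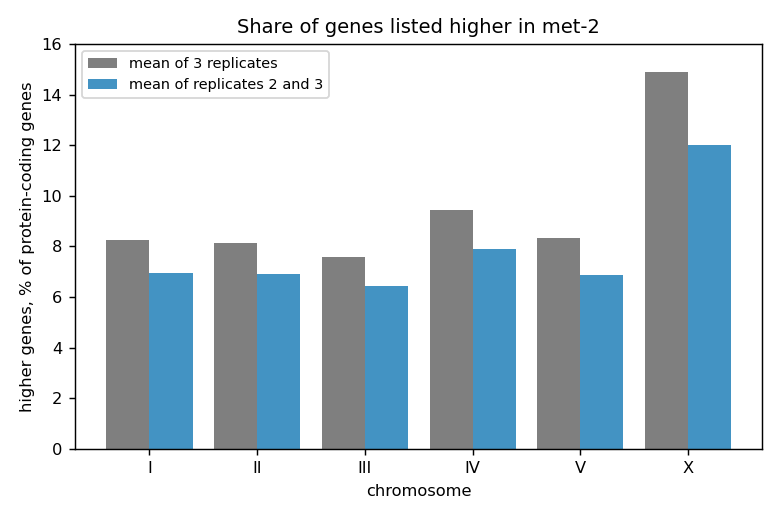
The share of annotated protein-coding genes listed higher in met-2 (y axis, percent) is shown for each chromosome (x axis), from all 3 replicates and from replicates 2 and 3 alone. The X chromosome has the highest share under both choices, at 14.9% and 12%.

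Higher genes were often neighbours. In the order of the annotation 647 of 1853 higher protein-coding genes, 34.9%, had a higher gene next to them, whereas 15.4% of the other 18120 protein-coding genes did. From replicates 2 and 3 the share was 29.8%. There were 57 runs of at least 3 adjacent higher genes and 2 runs of 5. The run on the X chromosome held F35A5.1, fkh-9, ttr-48, ceh-18 and lim-4, with a median mean of 2.05, and the run on chromosome I held T06A4.3, T06A4.1, zfh-2, ZC123.1 and cdk-14, with 1.93. Some runs were families in tandem, such as the collagens col-167 to col-170 on the X chromosome, with means from 2.07 to 2.41, and the lipocalin-related lpr-3, lpr-6, lpr-5 and lpr-4, with means from 1.00 to 2.45. Reads may have been divided between similar copies in tandem, which makes single values there uncertain.

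Set beside the other mutants, the genes higher in met-2 had a median of 0.94 for their lin-65 means and of 1.74 for their double mutant means. These mutants were measured against the same N2, and differences between mutants do not contain it. In limma's test across all 2949 genes met-2 stood above lin-65 for 1236 genes, 41.9%, and below for 145, 4.92%. Of the 1922 higher genes 1008 were called above lin-65 and 16 below. Choosing genes by a high met-2 mean pushes this count upward. The share of 41.9% over all genes is no neutral background for it. Of the 2949 genes 65.2% are these higher genes, whereas the lin-65 table holds 973 genes. Both counts therefore depend on how the authors selected genes and are given as a description. Setting all libraries to the same median, which lowers met-2 by 0.04 and raises lin-65 by 0.34 on average, gave 523 above and 366 below. Without replicate 1 of lin-65 the first count was 780.

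The differences from lin-65 are given by group as a description, since the same met-2 values chose the genes, and beside the 1008 of 1922 called over all. Of the 53 higher collagens 44 were called above lin-65, with a median difference of 1.51. The corresponding counts were 16 of 18 for body wall muscle with 0.72, 16 of 18 for intestine with 0.87, 10 of 11 for pharynx with 0.99 and 18 of 21 for neuropeptides with 0.86. Ciliary genes were called for 10 of 41, axon guidance genes for 5 of 26 and homeobox factors for 2 of 12, with median differences of 0.34, 0.36 and 0.22. Over all 1922 genes the median difference was 0.51. The antimicrobial peptide cnc-4 had a lin-65 mean of −0.43, and its difference of 2.76 (SE 0.20) passed limma's test with an adjusted p of 2.78e-08.

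Against the double mutant fewer genes were called, and the count rested on single libraries. Met-2 stood above the double mutant for 145 genes, 4.92%, and below for 348, 11.8%. Of the 1922 higher genes 54 were called above and 188 below, with a median difference of −0.31. Without replicate 1 of met-2 the count below was 1762, and without any other single library of either mutant it was 62 to 102. The count above was 93 without replicate 2 and 91 without replicate 3 of the double mutant. With all libraries set to the same median, which lowers the double mutant by 0.30 on average, 272 genes stood above and 143 below. Hedgehog-related genes were called below for 9 of 24 and cuticlins for 5 of 15, and MATH and BTB genes above for 3 of 10.

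Among the 1941 genes the largest difference from either mutant, with met-2 higher, was that of srw-85. This chemoreceptor gene exceeded lin-65 by 4.28 (SE 0.21, limma adjusted p = 2.1e-10) and the double mutant by 3.81 (SE 0.21, limma adjusted p = 9.92e-10). ZK1053.2 and its neighbour ZK1053.1 on chromosome I exceeded the double mutant by 2.05 and 1.78, with limma adjusted p-values of 2.09e-07 and 1.76e-06. Both genes had nearly equal values in the 3 met-2 libraries, with SDs of 0.08 and 0.07. The serotonin receptor ser-4 went the other way, 1.25 units below the double mutant, where its mean was 3.06. Its met-2 mean was 1.80 and its lin-65 mean 2.77. The met-2 values in these tests also chose the 1941 genes, and the genes named here were picked for large differences. Their p-values are therefore given as a description.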

How the data were processed

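Total RNA-seq was measured in 12 libraries of 4 strains. The authors deposited log2 values in 3 tables, with a column for each of 9 mutant libraries. The tool edgeR and the build ce10 are named per the submitters' processing notes. For the aligner, counting, annotation, scaling and gene selection, details were not given in the sources used here. N2 as the baseline was read from the values of met-2 and lin-65. The tables hold no counts and no N2 columns, so depth is unknown and N2's spread could not enter a test. Mutants were compared by limma 3.58.1 (R 4.3.3) over all 9 libraries and 2949 genes, with Benjamini-Hochberg adjustment at 0.05. The script was tested on simulated data for met-2 minus lin-65. It recovered 16% of changes of 0.5 and 78% of changes of 1 log2 unit. Genes that were not called may therefore still differ. The simulated data held fewer changed genes than were called and no shift of a whole library. These rates may therefore not hold for the real libraries. Chromosomes came from the Ensembl 115 annotation of WBcel235, in which 2869 identifiers matched. Names came first from a separate gene name reference and otherwise from the Ensembl annotation. Gene coordinates of that annotation were used only to order the protein-coding genes along each chromosome. The 58 gene lists were taken from symbols. Members and lists were chosen with earlier results of these data known. Genes named in the text were the targeted genes, the 10 highest means, all lower genes, up to 4 per list with the largest mean, the 8 largest excesses each way, those nearest the limit and the 5 largest differences each way. The defining markers, genes at the ends of lists such as snt-1, and those in chromosomal runs were named besides. Alternatives changed the limit, the scaling, the libraries and the limma settings.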

Additional observations from a re-analysis of the deposited data

Results flagged for a closer look

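Genes of the met-2 list were picked out where they differed most between met-2 and another mutant in limma's test across 2949 genes with Benjamini-Hochberg adjustment. Differences are met-2 minus the other mutant in log2 units, from 3 libraries of each. The same met-2 values chose the list, and the genes were picked for large differences. Their p-values are therefore given as a description.

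Against lin-65, met-2 stood higher for the chemoreceptor srw-85 by 4.28, for C42D4.3 by 3.73, for the antimicrobial peptide cnc-4 by 2.76, for C45B2.2 by 2.75 and for the ground-like grl-4 by 2.70, with limma adjusted p-values from 2.1e-10 to 8.07e-08. C45B2.2 and grl-4 had lin-65 means of −0.25 and −0.22. In the other direction the difference was −2.33 for met-2 itself, the gene deleted in this strain. Further differences were −1.50 for the chemoreceptor sri-62, −1.41 for Y24F12A.1, −1.13 for ncs-6, a calcium sensor of neurons, and −1.05 for T08B2.11. Their limma adjusted p-values ran from 3.19e-06 to 0.000313. Of these, sri-62 and ncs-6 stood above N2 in met-2, at means of 2.01 and 1.76, and higher still in lin-65, at 3.51 and 2.89.

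Against the double mutant, met-2 stood higher for srw-85 by 3.81, for WBGene00021577 by 2.36, for ZK1053.2 by 2.05, for ZK1053.1 by 1.78 and for Y102A5C.36 by 1.69, with limma adjusted p-values from 9.92e-10 to 1.42e-05. WBGene00021577 has no symbol in the annotation, with a met-2 mean of 1.29 and a double mutant mean of −1.07. Met-2 stood lower for WBGene00020118 by −1.72, for ZK1025.3 and sri-62 by −1.59 each, for R155.3 by −1.51 and for the serotonin receptor ser-4 by −1.25, with limma adjusted p-values from 1.23e-06 to 7.79e-05.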

How the results depend on the processing

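No test against N2 could be made, depth is unknown, and the genes are the authors' selection. The 20 differences of single genes between mutants kept their direction and stayed past the threshold under 12 settings each. A 4-fold limit left 286 higher genes and 1 lower gene, and asking every library to pass left 8 lower genes. Leaving out 1 met-2 library gave 1597 to 1903 higher and 16 to 18 lower genes. The excess of replicate 1 became 0.066 with libraries set to the same median and 0.20 with each divided by its slope. Against lin-65, equal medians gave 523 genes above and 366 below, and testing only the met-2 table's genes gave 22 below. Leaving out 1 library gave 780 to 1427 above, lowest without replicate 1 of lin-65, and moved the count below by less than 1.5 times. Against the double mutant the counts above were 272 with equal medians, 245 with array weights, 53 with only the table's genes and 91 to 198 without 1 library. The counts below were 143, 1992 and 170 under the same 3 settings, 218 with only the libraries of both mutants and 62 to 1762 without 1 library, highest without replicate 1 of met-2. Array weights gave replicates 1, 2 and 3 of met-2 weights of 0.111, 0.799 and 2.63. Using only the table's genes tests fewer genes; for the other changes the cause was not tested. Of 59 counts per list, chromosome and neighbourhood, 3 moved by over 1.5 times from replicates 2 and 3 alone.

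With the replicate number as a block, 1130 genes stood above and 133 below lin-65, and 134 above and 248 below the double mutant. Same-numbered libraries of different mutants did not deviate together, with correlations across genes from −0.21 to 0.04. Differently numbered libraries had correlations from −0.15 to 0.235. With so few libraries per strain, these correlations cannot decide whether the replicate numbers pair the samples.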

Other observations

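The ABC transporter abt-5 stood at 2.26, 2.18 and 2.40, with an SD of 0.109, beside a median SD of 0.326 over all higher genes. Among the 78 higher genes with an excess of replicate 1 under 0.1 in absolute size, 29.5% belonged to at least 1 of the gene lists, against 36.4% of all higher genes. Of the 49 with an excess above 1, 22.4% did. Sequence-named genes made up 42.3% of the first set, 61.2% of the second and 38.3% of all higher genes. The sets were formed from the same values and carry no test.

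Of the genes held only by another mutant's table, 2 had a met-2 mean of −1 or less, the transporter gene wht-6 at −1.13 and the acyltransferase-like oac-34 at −1.27.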
